A study of Mus musculus with 20 samples.

Results

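The genes described here are those of MHC class I and of the loading of its peptides, 10 listed symbols of the 39017 genes in the count table. They are the classical heavy chains H2-K1 and H2-D1, the non-classical heavy chains H2-Q6, H2-Q7, H2-T22 and H2-T23, the light chain B2m, and the loading genes Tap1, Tap2 and Tapbp. All 10 were found in the table. RNA was sequenced from microglia and from astrocytes of adult male C57BL/6 mice (C57BL/6J in the study's methods), collected 7 days after lateral fluid percussion injury (FPI), in which a pulse of fluid strikes the exposed dura, or after a sham procedure. There were 5 libraries for each of 4 groups, which were sham microglia, FPI microglia, sham astrocytes and FPI astrocytes, 20 libraries in all. Each library came from cells of a single animal, sorted from the ipsilateral forebrain as CD11b+ cells with intermediate CD45 for microglia and as ACSA-2+ cells for astrocytes. Sham mice had the craniectomy and the connection to the device but no pulse, so both conditions share the craniectomy of the day before. Total counts per library ran from 5623349 to 13110857 in sham microglia, from 6890710 to 8396868 in FPI microglia, from 7998479 to 10917112 in sham astrocytes and from 6470553 to 10194999 in FPI astrocytes.

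MHC class I molecules carry peptides from inside the cell to its surface, where CD8 T cells and natural killer cells read them. A heavy chain folds with the light chain beta-2 microglobulin, and the peptide transporter, a heterodimer of TAP1 and TAP2, brings peptides into the endoplasmic reticulum, where tapasin (Tapbp) holds empty heavy chains beside it. Classical chains present diverse peptides, while non-classical chains have narrower or other roles, and resting brain cells are known for low class I levels that interferons raise.

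Some libraries stand apart by their names. The name of FPI astrocyte library 5 ends like those of microglia and repeats the number of FPI astrocyte library 2, so these libraries may share an animal; its title and cell type label were followed. By the numbers in the names, microglia and astrocytes were both taken from 3 of the mice, and the microglia libraries bear names of separate series for replicates 1 to 3 and replicates 4 and 5. The labels held against markers in these counts. The 10 microglia markers summed to between 23705 and 29099 CPM (counts scaled by library size and TMM factors) in sham microglia and to between 104 and 183 CPM in sham astrocytes. The 7 astrocyte markers summed to between 8901 and 26305 CPM in sham astrocytes and to between 234 and 342 CPM in sham microglia. FPI astrocyte library 5 had 13729 CPM of the astrocyte markers and 236 CPM of the microglia markers, so its markers are those of its label. Astrocyte libraries also held markers of other cells, of which some are given here. The 5 markers of mural and fibroblast cells, of which Vtn was the most abundant, summed to 1035, 2735, 1894, 2877 and 5494 CPM in sham astrocytes and to 315, 2426, 2660, 4143 and 7599 CPM in FPI astrocytes, lowest in library 1 and highest in library 5 of each group. The 8 endothelial markers, led by Flt1, summed to between 31.6 and 536 CPM in sham and between 125 and 471 CPM in FPI astrocytes, and the 7 markers of oligodendrocyte precursors, led by Cspg4, which pericytes also express, to between 324 and 1041 CPM and between 555 and 1476 CPM.

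Of the 10 genes, 7 were called higher in FPI than in sham microglia, which required a log2 fold change beyond 0.6 in size and an edgeR adjusted p under 0.1. Over all 12143 genes tested there, 259 were called higher, 2.13%, and 26 lower, 0.214%. All 5 FPI libraries lay above all 5 sham libraries for 6 of the 10, against 2.17% of the genes tested. The median log2 fold change of the 10 was 0.93, beside -0.009 over all tested genes. The called genes were both classical chains, the non-classical chains H2-Q6, H2-Q7 and H2-T22, the light chain and Tap1. The genes not called were H2-T23, Tap2 and Tapbp. In a bulk library, a change in the share of cells that express a gene and a change in its RNA per cell cannot be told apart.

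**Figure D1:**
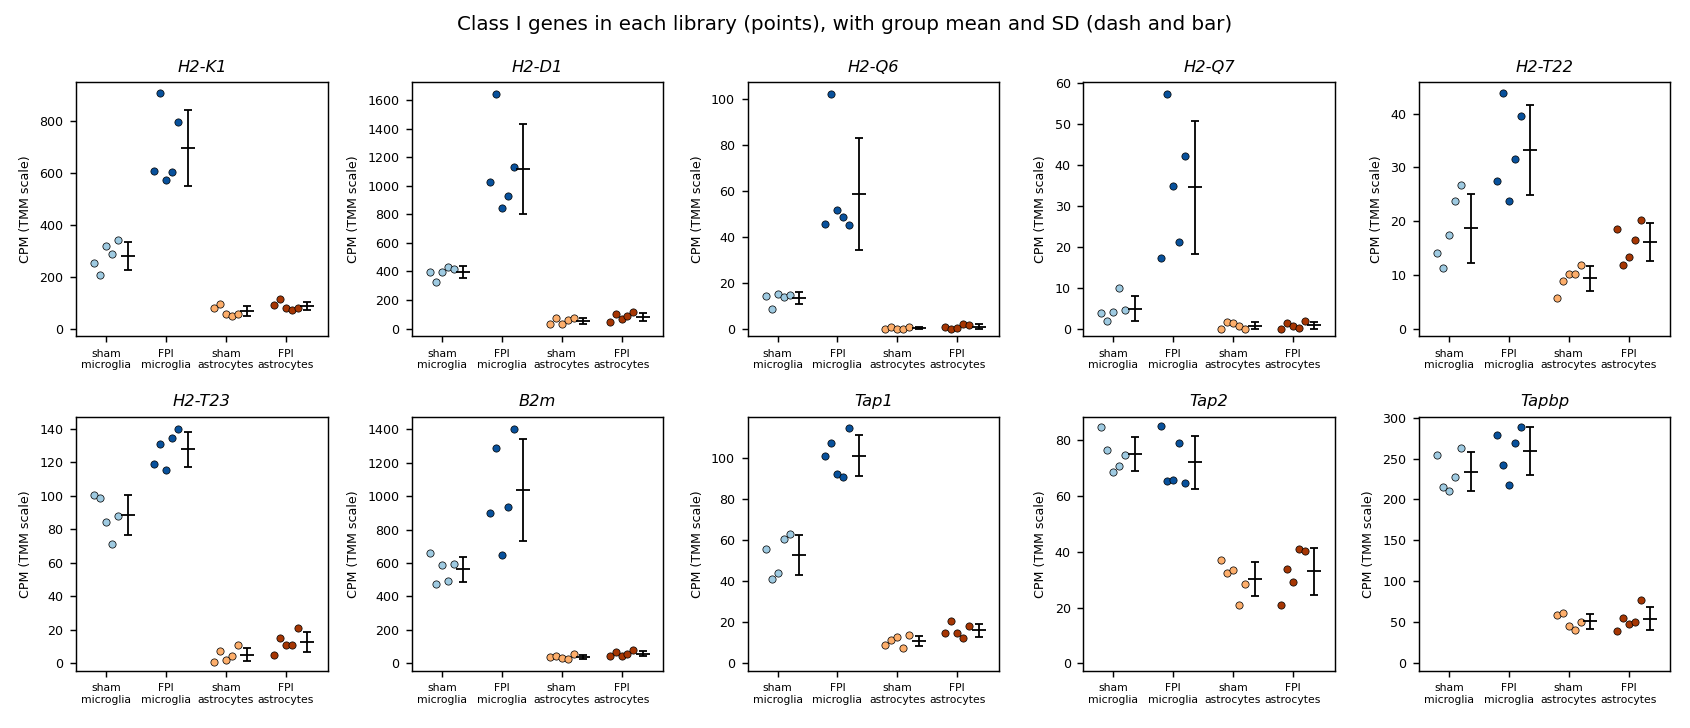
Level of each of the 10 genes in CPM on the TMM scale (vertical axes, each with its own scale) in the 5 libraries of each group (points), with the group mean and SD beside them. All FPI microglia libraries lie above all sham microglia libraries for H2-K1, H2-D1, H2-Q6, H2-Q7, H2-T23 and Tap1, and the groups overlap for H2-T22, B2m, Tap2 and Tapbp.

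The classical chain H2-K1 was at 252, 206, 317, 287 and 340 CPM (3 significant digits) in the 5 sham microglia libraries and at 606, 906, 572, 602 and 796 CPM in the 5 FPI microglia libraries. The lowest FPI library lay above the highest sham library, and FPI library 2 was the highest. The log2 fold change was 1.33 (SE 0.16, adjusted p = 8.44e-05, edgeR). H2-D1, the other classical chain, was at 399, 328, 397, 434 and 417 CPM in sham and at 1023, 1643, 844, 928 and 1134 CPM in FPI microglia. Its groups did not overlap either, and FPI library 2 was again the highest. For H2-D1 the log2 fold change came to 1.51 (SE 0.16, adjusted p = 3.70e-05, edgeR). Both chains were called in the replicates of each series of names taken alone, with log2 fold changes of 1.41 in replicates 1 to 3 and 1.21 in replicates 4 and 5 for H2-K1, and of 1.63 and 1.33 for H2-D1.

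The non-classical chains H2-Q6 and H2-Q7 belong to the Qa-2 group. H2-Q6 was at 14.0, 8.71, 15.1, 13.6 and 14.4 CPM in sham microglia and at 45.6, 102.1, 51.8, 48.5 and 45.2 CPM in FPI microglia. Sham library 2 was the lowest and FPI library 2 the highest, far from the others of their groups, and the groups did not overlap. The log2 fold change was 2.17 (SE 0.24, adjusted p = 3.70e-05, edgeR). H2-Q7 was at 3.75, 1.83, 4.14, 9.88 and 4.55 CPM in sham and at 17.3, 57.3, 34.8, 21.1 and 42.1 CPM in FPI microglia. Sham library 4 was the highest of its group and still lay below every FPI library. H2-Q7 had the largest log2 fold change of the 10, 2.86 (SE 0.38, adjusted p = 2.36e-04, edgeR), with 3.48 in replicates 1 to 3 and 2.16 in replicates 4 and 5, both called. These chains can share reads. Of all stretches of 100 bases in the GENCODE transcripts of H2-Q7, 12% also occur in another gene, and of H2-Q6 10.8%, most often in H2-Q7. The division of reads between them is therefore uncertain. H2-Q8 and H2-Q9 were not in the count table, so reads from them, if any, were not counted under their own names.

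H2-T22, a ligand of some gamma delta T cells, was at 14.1, 11.3, 17.5, 23.7 and 26.7 CPM in sham microglia and at 27.6, 43.9, 23.7, 31.6 and 39.6 CPM in FPI microglia. FPI library 3 lay below sham library 5 and beside sham library 4, so the groups overlapped. The log2 fold change was 0.86 (SE 0.25, adjusted p = 0.0861, edgeR). The call was lost without sham library 1, 2 or 3, at log2 fold changes of 0.78, 0.71 and 0.84, and without FPI library 2, 4 or 5, at 0.75, 0.87 and 0.77. It was also lost in replicates 4 and 5 alone, at 0.55, in the fit of all 20 libraries, at 0.84, and where an adjusted p under 0.05 was required with no minimum fold change. H2-T22 shares 8.86% of its stretches of 100 bases with other genes, most often H2-T10, which stood at 1.56 ± 0.861 CPM (SD, n = 5) in sham microglia. H2-T23 encodes Qa-1, which presents leader peptides of other class I chains to natural killer cells. H2-T23 was at 101, 98.8, 84.5, 71.2 and 88.1 CPM in sham and at 119, 131, 115, 134 and 140.0 CPM in FPI microglia. No FPI library was as low as the highest sham library, and the log2 fold change was 0.54 (SE 0.13, adjusted p = 0.0297, edgeR), below the minimum of 0.6. H2-T23 was called without sham library 1, at 0.60, in replicates 4 and 5 alone, at 0.83, and under the rule of an adjusted p under 0.05 with no minimum fold change.

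The light chain B2m, which pairs with every one of these heavy chains, was at 658, 475, 591, 492 and 592 CPM in sham microglia and at 902, 1286, 651, 934 and 1405 CPM in FPI microglia. FPI library 3 lay just below sham library 1, and FPI libraries 2 and 5 were the highest. For B2m the log2 fold change came to 0.90 (SE 0.18, adjusted p = 0.00932, edgeR), with 0.70 and no call in replicates 1 to 3 and 1.16 and a call in replicates 4 and 5. In the fit of all 20 libraries it was not called, at 0.88 (adjusted p = 0.112, edgeR).

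The transporter genes differed. Tap1 was at 55.7, 41.1, 43.9, 60.6 and 62.7 CPM in sham microglia and at 101, 107, 92.0, 90.6 and 114 CPM in FPI microglia. The groups did not overlap, and the log2 fold change was 0.95 (SE 0.15, adjusted p = 9.31e-04, edgeR), with 1.08 and a call in replicates 1 to 3 and 0.78 and no call in replicates 4 and 5. Tap2, the partner subunit, was at 84.7, 76.4, 68.7, 70.7 and 74.8 CPM in sham and at 85.1, 65.3, 65.9, 79.2 and 64.7 CPM in FPI microglia. The groups overlapped, and the log2 value was -0.04 (SE 0.13, adjusted p = 0.954, edgeR). Tapbp, which encodes tapasin, was at 254, 215, 210.0, 228 and 263 CPM in sham and at 279, 242, 218, 269 and 288 CPM in FPI microglia. Its groups overlapped too, and the log2 value was 0.16 (SE 0.13, adjusted p = 0.738, edgeR). The start of Tap1 overlaps that of Psmb9 on the other strand, and whether the counting used strand is not given in the sources used here, so reads there are uncertain. Psmb9 stood at 14.3 ± 3.45 CPM (SD, n = 5) in sham microglia and 15.9 ± 1.02 CPM after FPI.

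**Figure D2:**
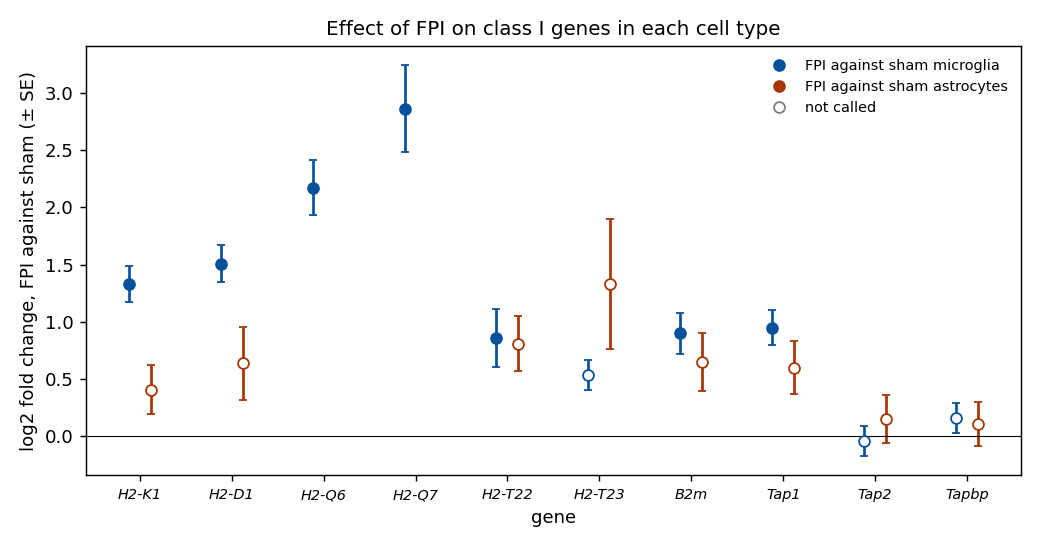
Log2 fold change of FPI against sham for each gene (points, bars are SE) in microglia and in astrocytes, with open points for genes not called. In microglia the values run from -0.04 for Tap2 to 2.86 for H2-Q7, and H2-Q6 and H2-Q7 have no astrocyte value because they were below the filter on low counts.

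Ratios within a library do not depend on the scaling between libraries. The ratio of Tap1 to Tap2 counts was 0.658, 0.537, 0.640, 0.857 and 0.838 in sham microglia and 1.19, 1.64, 1.40, 1.14 and 1.77 in FPI microglia. Each FPI library exceeded each sham library. The counts of Tap1, Tap2 and Tapbp together, over the sum of the 6 heavy chains, were 0.504, 0.508, 0.387, 0.428 and 0.450 in sham microglia and 0.253, 0.144, 0.229, 0.249 and 0.213 in FPI microglia. Here each FPI library lay below each sham library. The ratio of B2m to heavy chain counts was 0.706 ± 0.0925 (SD, n = 5) in sham and 0.501 ± 0.0923 in FPI microglia, and the groups overlapped. No test was made on these ratios.

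The 4 listed non-classical chains are next set against the classical ones within each library. Of the counts on the 6 listed heavy chains they took 15.8 ± 1.83% (SD, n = 5) in sham microglia and 12.4 ± 1.05% after FPI. The groups did not overlap on counts but did on counts per kilobase of exon. Other non-classical chains lie outside this sum, so these percents are not shares of all class I heavy chains. H2-T24 averaged 605 counts in sham and 840 in FPI microglia, H2-Q4 303 and 715, and H2-M3 289 and 417, beside 112 and 461 for H2-Q6. H2-T23 alone held 11.3 ± 2.66% of the heavy chain counts in sham and 6.40 ± 1.15% in FPI microglia, where each FPI library lay below each sham library. The share on H2-Q6 and H2-Q7 together was 2.22 ± 0.426% in sham and 4.43 ± 0.920% in FPI microglia, also with no overlap. H2-D1 held 49.4 ± 2.14% and 53.6 ± 2.52%, and H2-K1 34.8 ± 3.15% and 33.9 ± 1.83%, with overlapping groups for both.

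**Figure D3:**
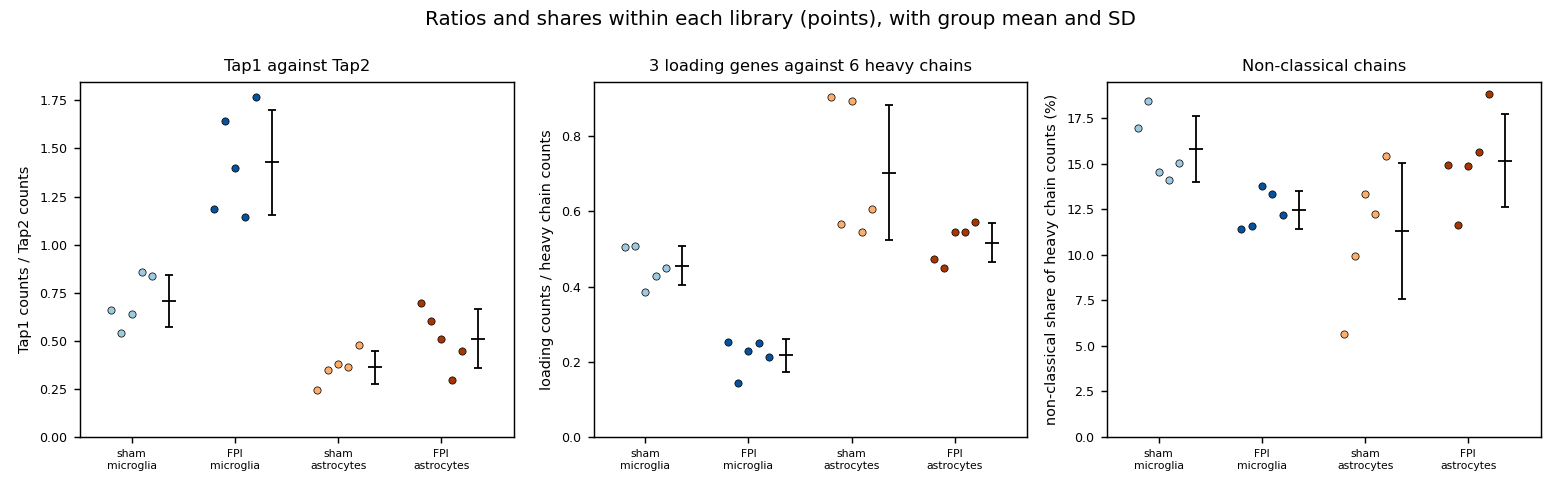
Ratio of Tap1 to Tap2 counts, ratio of the 3 loading genes to the 6 heavy chains, and percent of heavy chain counts on the 4 non-classical chains (vertical axes, all from 0) in each library (points), with group mean and SD. In microglia sham and FPI libraries do not overlap in any of the 3 panels, and in astrocytes they overlap in all 3.

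Levels between genes are compared as CPM per kilobase of exon. In sham microglia the order by this scale was B2m, H2-D1, H2-K1, Tapbp, H2-T23, Tap2, Tap1, H2-Q6, H2-T22 and H2-Q7. The level per kilobase was 653 ± 88.9 for B2m, 153 ± 15.7 for H2-D1 and 1.13 ± 0.705 for H2-Q7 (SD, n = 5). The ranges of H2-K1 and Tapbp met, as did those of H2-Q6 and H2-T22, and the other neighbours were apart. In FPI microglia B2m, H2-D1, H2-K1 and Tapbp kept the first 4 places, and H2-Q6, at 28.1 ± 11.7 CPM per kilobase, stood above Tap2 in 4 of 5 libraries. In sham astrocytes B2m came first at 44.1 ± 13.3 CPM per kilobase, and H2-K1 and H2-D1 followed at 22.6 ± 6.57 and 21.1 ± 8.41, which did not differ beyond their spread, and the ranges of B2m and H2-K1 met. H2-Q6 and H2-Q7 came last in astrocytes, below 1 CPM per kilobase on average in sham and FPI.

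All 10 genes were called higher in sham microglia than in sham astrocytes, where 25.3% of the 15077 genes tested were called higher (edgeR). The median log2 fold change was 2.46, beside -0.152 over all tested genes. B2m stood 3.89 higher on the log2 scale (SE 0.26, adjusted p = 4.72e-11, edgeR), and H2-T23 4.12 higher (SE 0.44). H2-Q6 had 5.30 (SE 0.70), which rests on few astrocyte reads, 0, 9, 0, 0 and 6 counts in the sham libraries. Without sham astrocyte library 2 it was 6.13. H2-T22 had the smallest, 0.99 (SE 0.26, adjusted p = 0.00217, edgeR), and was the exception among the 10 whose libraries overlapped between the cell types. The other 9 had every sham microglia library above every sham astrocyte library, as did 23% of the genes tested.

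None of the 8 genes tested in astrocytes was called higher in FPI than in sham (edgeR), where 0.00728% of the 13741 genes tested were called higher and 0% lower. With an unadjusted p under 0.05 there were 4 of the 8, all with positive values, against 1.57% of all tested genes, and DESeq2 called 0. H2-Q6 and H2-Q7 were below the filter. The median log2 fold change of the 8 was 0.62, beside -0.005 over all tested genes. H2-T22 was at 5.71, 8.88, 10.1, 10.2 and 11.9 CPM in sham and at 18.4, 11.9, 13.3, 16.4 and 20.3 CPM in FPI astrocytes. It was the single gene of the 10 whose FPI astrocyte libraries all lay above the sham libraries, against 0.451% of the genes tested, though its lowest FPI and highest sham libraries both round to 11.9 CPM. The log2 fold change was 0.81 (SE 0.24, adjusted p = 0.999, edgeR).

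H2-T23 was at 0.797, 7.05, 2.19, 4.51 and 10.7 CPM in sham astrocytes and at 4.64, 15.3, 11.1, 11.2 and 20.9 CPM in FPI astrocytes. Sham library 5 lay above FPI library 1, so the groups overlapped, and the log2 value was 1.33 (SE 0.57, adjusted p = 0.999, edgeR). B2m was at 38.8, 43.5, 32.1, 22.6 and 52.8 CPM in sham and at 44.6, 68.0, 43.2, 54.9 and 80.8 CPM in FPI astrocytes, also overlapping, with 0.65 (SE 0.25). H2-K1 was at 80.6, 92.9, 54.9, 48.7 and 54.5 CPM in sham and at 91.6, 112.6, 77.5, 71.5 and 79.1 CPM in FPI astrocytes, with library 2 the highest of each group and a log2 fold change of 0.41 (SE 0.21). H2-D1 was at 28.7, 73.8, 34.1, 61.1 and 74.0 CPM in sham and at 43.1, 103, 66.8, 88.8 and 114 CPM in FPI astrocytes, with library 1 the lowest of each group and a value of 0.64 (SE 0.32). The groups overlapped for both classical chains.

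In the transporter, Tap1 was at 8.90, 11.2, 12.5, 7.49 and 13.7 CPM in sham astrocytes and at 14.5, 20.4, 14.8, 12.1 and 17.9 CPM in FPI astrocytes. FPI library 4 was the one FPI library below sham libraries 3 and 5, and the log2 fold change was 0.60 (SE 0.23). Tap2 ranged from 20.7 to 36.9 CPM in sham and from 20.8 to 41.1 CPM in FPI astrocytes, with 0.15 (SE 0.21), and Tapbp from 40.1 to 61.7 CPM and from 39.6 to 77.8 CPM, with 0.11 (SE 0.19). H2-Q6 reached at most 0.784 CPM in sham and 1.99 CPM in FPI astrocytes, and H2-Q7 at most 1.66 and 1.92 CPM, with libraries at 0 in each group of both genes. Without FPI astrocyte library 5 the values were 0.69 for H2-T22, 1.05 for H2-T23, 0.48 for B2m, 0.42 for H2-K1, 0.48 for H2-D1, 0.53 for Tap1, 0.04 for Tap2 and -0.08 for Tapbp, and 0 genes of the 8 were called.

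Microglia markers were examined in the same astrocyte libraries. Of the 10, 9 were tested, all 9 had a positive log2 fold change, with a median of 2.96, and 6 had an unadjusted p below 0.05, beside 1.57% of all tested genes in that direction, though 0 were called (edgeR). Of the 5 mural and fibroblast markers 5 were positive and 2 had such a p, and of the 7 precursor markers 6 were positive and 3 had such a p, with 0 called in either list (edgeR). The mural and fibroblast sum was lowest in library 1 and highest in library 5 of each astrocyte group, as were H2-D1 and H2-T23. The endothelial sum was 31.6, 496.4, 149.9, 277.5 and 536.4 CPM in sham astrocytes, in the same order of libraries as H2-D1 and H2-T23 there. In FPI astrocytes it was 124.6, 267.4, 471.1, 270.7 and 431 CPM, lowest in library 1 but highest in library 3. The part of either list in the values of H2-D1 and H2-T23 was not tested. The microglia markers summed to 183, 144, 104, 128 and 111 CPM in sham astrocytes. In FPI astrocytes they summed to 263, 230.2, 148, 131 and 236 CPM, with Sall1 the most abundant by group mean in both groups. No microglia marker was at 0 in every library of a group, though Itgam, C1qa, C1qb and Cd68 were at 0 in some sham libraries. The difference between FPI and sham astrocytes in the microglia marker sum was 0.279% of the FPI microglia level. The same percent was 20.2 for H2-T22, 5.91 for H2-T23, 5.15 for Tap1, 2.89 for H2-K1, 2.59 for H2-D1 and 1.97 for B2m. For H2-Q6 it was 0.918 and for H2-Q7 0.163. The largest value among the markers was 0.594, for Cd68. The part of microglial RNA in the astrocyte values was not tested. Of the 10 markers of T and NK cells, 9 were at 0 in FPI astrocytes and 7 in FPI microglia, where Cd4 was the most abundant. In microglia the 8 markers of monocytes and macrophages, led by Mrc1 and with Ly6c2 at 0, summed to 434, 294, 438, 26.8 and 20.8 CPM in sham and 255, 195, 143, 22.6 and 66.99 CPM in FPI libraries, so replicates 1 to 3 were the high ones in both groups. The 7 astrocyte markers, led by Slc1a3 in sham, summed to 315, 248, 308, 342 and 234 CPM in sham and to 542, 560, 345, 283 and 278 CPM in FPI microglia, and 1 of the 7 was called higher, beside 2.13% of all tested genes, with all 7 values positive. Of the 3 tested markers of oligodendrocyte precursors, Cspg4 was called higher in microglia, from a mean of 1.38 CPM in sham to 6.78 CPM in FPI, and Pdgfra, not called, stood at 3.02 and 0.936 CPM. The part of these cells in the results was not tested.

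**Figure D4:**
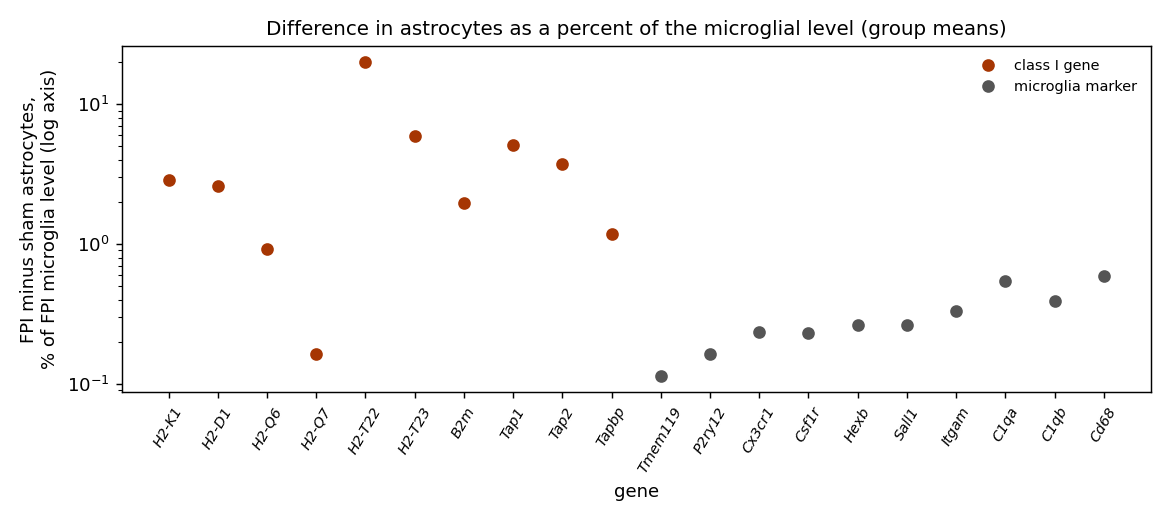
Difference between the mean CPM of FPI and sham astrocytes as a percent of the mean CPM in FPI microglia (vertical axis, log scale) for the 10 class I genes and the 10 microglia markers (points). The markers lie between 0.113 and 0.594%, and the class I genes between 0.163% for H2-Q7 and 20.2% for H2-T22.

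Whether FPI acted differently in the cell types was tested over all 20 libraries. Of the 10 genes 0 passed the edgeR test of this difference with an adjusted p under 0.1, where 0.199% of 15077 genes did. At an unadjusted p below 0.05 there were 3, all with the larger effect in microglia, where 3.77% of all tested genes had such a p in that direction, and DESeq2 called 0. H2-K1 had the smallest p, with a difference of 0.93 (SE 0.28, adjusted p = 0.357, edgeR), and H2-Q7 the largest difference, 2.91 (SE 1.07). For H2-T22 the difference was 0.06 (SE 0.36) and for H2-T23 -0.77 (SE 0.56). The value for H2-T23 was -1.24 to -0.53 with a library left out and -1.36 to -0.75 under the other alternatives. A call in microglia beside no call in astrocytes is thus not shown to be a difference between them.

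Of 35 other listed genes of the pathway, 33 were in the table and 26 were tested in microglia, where 5 were called higher and 0 lower, with a median log2 fold change of 0.19, beside 2.13% called higher and a median of -0.009 over all tested genes. Nlrc5, the transactivator of class I genes, was at 30.2, 17.6, 16.0, 33.3 and 29.6 CPM in sham and at 76.3, 89.9, 86.0, 45.3 and 47.4 CPM in FPI microglia. The groups did not overlap, and FPI replicates 1 to 3 were the high ones. Its log2 fold change was 1.46 (SE 0.23, adjusted p = 0.00119, edgeR). Among 6 tested heavy and class I-like chains, 3 were called, H2-Q4 at 1.43 (SE 0.18), H2-T24 at 0.71 (SE 0.15) and H2-M3 at 0.68 (SE 0.19). Of 5 genes of the immunoproteasome and its activator 1 was called, Psme1 at 0.79 (SE 0.18). Its catalytic subunits Psmb8, Psmb9 and Psmb10 had 0.36, 0.17 and 0.33. None of the 7 loading chaperones and trimming enzymes, such as Calr, Canx, Pdia3 and Erap1, was called, with values from -0.06 to 0.25, nor were the 2 receptors Pirb and Fcgrt. In astrocytes 22 of the 33 were tested and 0 were called (edgeR). Nlrc5 there stood at a log2 value of 2.05 (SE 0.61) and Psmb8 at 1.20 (SE 0.32), both with adjusted p = 0.999 (edgeR). For both, all FPI libraries lay above all sham libraries, against 0.451% of the genes tested. These values rest on few reads. Nlrc5 had 1, 8, 31, 22 and 21 counts in sham and 28 to 91 in FPI astrocytes, and Psmb8 20 to 47 and 50 to 69. Between sham microglia and sham astrocytes 20 of 26 were called higher in microglia, beside 25.3% of all tested genes, and 1 lower, Rfxank, at -1.09 (SE 0.22).

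Across the 10 microglia libraries, with each group's mean removed, the mean log2 CPM of the 10 genes was most like that of Ccl12 (r = 0.951, rho = 0.976), Rpsa (r = 0.943, rho = 0.939), Soat1 (r = 0.942, rho = 0.964), Ncapd2 (r = 0.912, rho = 0.903) and Gm10335 (r = 0.896, rho = 0.927), among 8006 genes. Without the 2 libraries farthest from the median r was between 0.866 and 0.978 for these 5 genes. In the 10 astrocyte libraries the mean was taken over the 8 genes tested there, without H2-Q6 and H2-Q7, and the genes most like it were Psma7 (r = 0.953, rho = 0.927), Plekhg5 (r = 0.924, rho = 0.964), Tcf7 (r = 0.922, rho = 0.891), Rpl37a (r = 0.919, rho = 0.842) and Cyb5r3 (r = 0.911, rho = 0.976), among 9156. There r without the 2 farthest libraries was between 0.843, for Tcf7, and 0.955, for Psma7. These are the highest of many correlations over libraries that share their scaling, and are given as a description. Within the 10 genes, H2-K1 had r = 0.91 with the sum of the others in microglia, and Tap2 r = -0.22 and H2-T23 r = 0.03.

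Promoters are shown for 5 of the 7 genes called higher in microglia, with a classical chain, the Qa-2 chains, the light chain and the transporter among them, and for Tapbp, which was not called. For H2-K1 the first of both entries is printed. RefSeq promoters of 300 bases (GRCm38.p6) matched 9 of the 10 genes, Tap2 being the exception. Both strands were searched for the core of the interferon-stimulated response element (GAAANNGAAA), a kappa B core (GGGATTCCC), the CRE-like core of the X2 box (TGACG) and the CCAAT box, and matches are in capitals, as read on the printed strand. The positions are chr17:34000298-34000597 (minus strand) for H2-K1, chr17:35424600-35424899 (plus) for H2-Q6, chr17:35438905-35439204 (plus) for H2-Q7, chr2:122147437-122147736 (plus) for B2m, chr17:34187306-34187605 (plus) for Tap1 and chr17:33919228-33919527 (plus) for Tapbp.
H2-K1: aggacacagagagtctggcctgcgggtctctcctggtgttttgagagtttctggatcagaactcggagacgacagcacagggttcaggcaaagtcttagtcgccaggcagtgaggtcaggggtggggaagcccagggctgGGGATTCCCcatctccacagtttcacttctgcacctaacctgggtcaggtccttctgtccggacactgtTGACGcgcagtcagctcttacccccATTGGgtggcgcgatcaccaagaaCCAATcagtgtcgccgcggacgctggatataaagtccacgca
H2-Q6: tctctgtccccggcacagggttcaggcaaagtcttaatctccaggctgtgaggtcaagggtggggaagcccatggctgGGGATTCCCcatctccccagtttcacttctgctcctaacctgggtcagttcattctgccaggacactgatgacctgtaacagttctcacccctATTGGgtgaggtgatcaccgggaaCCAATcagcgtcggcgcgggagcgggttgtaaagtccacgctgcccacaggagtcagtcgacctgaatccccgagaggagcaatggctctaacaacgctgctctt
H2-Q7: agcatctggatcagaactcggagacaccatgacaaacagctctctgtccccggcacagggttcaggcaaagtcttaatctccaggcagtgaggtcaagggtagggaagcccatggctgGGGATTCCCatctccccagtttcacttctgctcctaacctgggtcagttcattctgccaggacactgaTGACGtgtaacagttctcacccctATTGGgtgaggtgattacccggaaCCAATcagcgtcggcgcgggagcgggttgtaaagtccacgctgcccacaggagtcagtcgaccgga
B2m: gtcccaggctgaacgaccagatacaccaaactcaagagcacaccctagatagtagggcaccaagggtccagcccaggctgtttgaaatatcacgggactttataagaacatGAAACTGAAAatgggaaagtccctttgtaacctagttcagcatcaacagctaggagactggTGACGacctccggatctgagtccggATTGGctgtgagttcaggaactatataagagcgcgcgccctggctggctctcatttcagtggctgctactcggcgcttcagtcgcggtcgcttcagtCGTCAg
Tap1: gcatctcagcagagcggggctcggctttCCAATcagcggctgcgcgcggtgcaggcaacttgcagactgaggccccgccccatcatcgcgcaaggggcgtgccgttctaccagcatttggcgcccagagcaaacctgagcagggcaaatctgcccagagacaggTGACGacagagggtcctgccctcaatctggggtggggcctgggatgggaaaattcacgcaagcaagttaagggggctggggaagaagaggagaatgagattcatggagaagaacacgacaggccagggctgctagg
Tapbp: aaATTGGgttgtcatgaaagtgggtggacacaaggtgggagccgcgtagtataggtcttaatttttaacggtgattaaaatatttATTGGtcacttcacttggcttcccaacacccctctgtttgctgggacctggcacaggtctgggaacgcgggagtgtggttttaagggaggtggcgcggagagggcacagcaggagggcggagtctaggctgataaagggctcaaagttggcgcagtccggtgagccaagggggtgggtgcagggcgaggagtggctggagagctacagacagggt

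The kappa B core was found in 4 of the 9 promoters, those of H2-K1, H2-D1, H2-Q6 and H2-Q7, and in 0.353% of 32851 promoters of this length. These promoters belong to related genes and are not independent matches, and the core was not found in those of the called genes H2-T22, B2m and Tap1. The response element core was found in 3, those of H2-T22, H2-T23 and B2m, and in 3.44% of all. The CRE-like core was in 6 of the 9 and in 20.8% of all, and the CCAAT box in 9 of the 9 and in 37.4% of all. The promoter of Tapbp had the CCAAT box alone, in a window at the RefSeq start, which lies inside the GENCODE gene that begins at position 33915899. A match describes letters in this window and shows no binding. A miss shows only that these exact letters were absent from the window. Variants of the cores were not searched, so a miss does not show that a gene lacks such a site.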

How the data were processed

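Microglia and astrocytes were profiled by stranded total RNA sequencing in 20 libraries. The deposited tables hold raw counts made by the authors, whole numbers without normalization, for 39017 identifiers. The submitters' processing notes name bcl2fastq, HISAT2 2.1.0 and featureCounts with GRCm38.p6, and settings for strand and for reads with several matches are not given in the sources used here. Each library's own file equalled its column in 20 of 20 cases. Identifiers were matched to GENCODE M21 (37693 matched), which gave exon lengths.

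FPI was compared with sham within a cell type by edgeR 4.0.16 under R 4.3.3, using filterByExpr, TMM factors, the quasi-likelihood test and Benjamini-Hochberg adjustment over all tested genes. A joint fit of the 20 libraries gave the comparison of cell types and the interaction of cell type with FPI, the latter called on the adjusted p alone. Levels are CPM on the TMM scale of all 20 libraries. Totals ran from 5623349 to 13110857 counts per library, and values of a few counts carry large counting error. Tables were computed with Python 3.11.15 (scipy 1.17.1, pandas 2.3.3, numpy 2.4.6), and figures drawn with matplotlib 3.10.9.

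Named genes are the 10 genes, the other pathway genes called or left by a small count, the most abundant marker and markers at 0, and the 5 genes of highest Pearson correlation with the mean of the members tested in each cell type (10 in microglia and 8 in astrocytes), at 10 CPM or more on average. The members and lists were chosen with earlier results of these data known. The values named for Psmb8, Psmb9 and Psmb10 in microglia, for Nlrc5 and Psmb8 in astrocytes, and for the markers Cspg4 and Pdgfra in microglia, were chosen after they were seen. Alternatives were DESeq2 1.42.0, RLE factors, other filters, another call rule, a replicate block, terms for series of replicates, other sets of libraries and leaving out each library. Protein sequences were not used here, and the result of a further marker list is not reported here.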

Additional observations from a re-analysis of the deposited data

Results flagged for a closer look

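H2-Q6 had a library far from the others of its group in both microglia groups, 2 of the 56 groups of 5 libraries examined. Chance alone would give about 1 in 20 groups if the groups were independent. The groups share libraries, so that rate cannot decide whether the 2 of 56 arose by chance. Sham microglia library 2 was at 8.71 CPM, below the 13.6 to 15.1 CPM of the other sham libraries. FPI microglia library 2 was at 102.1 CPM, above the 45.2 to 51.8 CPM of the others. Sham microglia library 2 was also the lowest for H2-K1, H2-D1, H2-Q7, H2-T22, B2m and Tap1, but not for H2-T23, Tap2 and Tapbp. FPI microglia library 2 was also the highest for H2-K1, H2-D1, H2-Q7 and H2-T22, but not for H2-T23, B2m, Tap1, Tap2 and Tapbp. Leaving out single libraries gave H2-Q6 log2 fold changes from 1.88 to 2.23, with a call in all 10 fits (edgeR). The cause was not tested.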

How the results depend on the processing

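The count of 7 genes called higher in FPI microglia was 7 under DESeq2, RLE factors, both other filters, the other call rule and the term for the series of names. Under the other call rule H2-T22 was lost (adjusted p = 0.0861, edgeR) and H2-T23 gained (adjusted p = 0.0297, edgeR). It was 5 in the fit of all 20 libraries, where H2-T22 and B2m were lost, 6 in replicates 1 to 3 and in replicates 4 and 5 alone, and 6 to 7 with each library left out. The count in astrocytes and that of effects that differ between cell types were 0 in every alternative run. The count of 10 higher in sham microglia than in sham astrocytes was 7 where 10 counts were required in every library, since H2-Q6, H2-Q7 and H2-T23 were then not tested, and 10 in the other alternatives. With a replicate block 7 members were called in microglia and 0 in astrocytes. The labels do not say what a replicate number marks, and the numbers were not taken as pairs, since the correlation of same-numbered deviations was not over 0.1 throughout. It was -0.066 to 0.092 in microglia, and in astrocytes -0.009 for number 2 and 0.245 to 0.452 for the other 4. Of 10 libraries, 3 in microglia and 7 in astrocytes correlated best with their own number, so a shared source in astrocytes cannot be told from these data. FPI exceeded sham at all 5 numbers in astrocytes for H2-K1, H2-D1, H2-T22, H2-T23, B2m and Tap1, and with the block their lowest adjusted p was 0.242 (H2-D1 at 0.67 and H2-T23 at 1.58, edgeR).

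Of 895 fold changes of single genes under an alternative, 862 kept direction and call, 12 lost the call, 3 gained it and 18 changed sign, all of the last among values not called. Tap2 in microglia was 0.03 in replicates 4 and 5 and -0.13 to 0.01 with a library left out. Tapbp in astrocytes was -0.01 with FPI libraries 2 and 5 summed and -0.08 to 0.18 with a library left out. The difference of effects for H2-T22 was -0.19 without the astrocyte and -0.11 without the microglia libraries of the 3 animals, and -0.10 to 0.20 with a library left out. For Tapbp it was -0.08 without those microglia libraries and -0.03 to 0.22 with a library left out, and for H2-Q6 0.00 to 1.46. The cause was not tested.

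Over all genes, 259 were called higher in microglia, against 99 in the fit of all 20 libraries, 97 in replicates 4 and 5, 166 without sham library 2 and 164 without FPI library 2. In astrocytes 1 was, against 39 by DESeq2, 52 in the fit of all 20 libraries, 9 with every gene kept, 11 with the replicate block, 6 with the term for replicates 4 and 5, 0 with the other call rule, with the stricter filter and with libraries 2 and 5 summed, and 0 to 3 with a library left out. For the difference of effects 30 genes became 190 by DESeq2, 1 with the stricter filter, 69 and 8 without the astrocyte or microglia libraries of the 3 animals, and 48 without FPI astrocyte library 3. Higher in sham microglia were 3814, and 2158 with the stricter filter. Low counts limit H2-Q6 and H2-Q7 in astrocytes, and also Nlrc5 and Psmb8 there.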
